A study of Homo sapiens with 6 samples.

Results

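SP5 and SP8, 2 members of the Sp family of zinc finger transcription factors, were examined for the histone marks H3K4me3 and H3K27me3 in human neural progenitor cells. The genes were represented by 2 fixed windows on genome build hg19, one of 35 kb on chromosome 2 around SP5 (171555001 to 171590000) and one of 27 kb on chromosome 7 around SP8 (20810001 to 20837000). Every peak that overlapped a window was taken. These 2 windows stand among 17922 consecutive 35 kb stretches of the genome, called tiles below, that held a peak in at least 1 of the 4 peak lists.

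The cells were made from the human embryonic stem cell line H9 (WA-09) and harvested on day 11 of a protocol that yields midbrain dopamine neurons. The compared cultures were called Boost-Chir and Low-Chir after their dose of CHIR99021, an inhibitor of the kinase GSK3 that activates canonical WNT signalling. All cultures began in medium with SHH, the inhibitors LDN and SB431542 (withdrawn on day 7), a ROCK inhibitor and 0.7 µM CHIR99021. Boost-Chir cultures then received 7.5 µM from day 4 to day 10, and the medium of day 10 held 3 µM. The labels do not state which dose Low-Chir cultures received from day 4. Chromatin was immunoprecipitated for each mark and sequenced (ChIP-seq) with 1 library per mark and condition, from 1 cell line, so no difference below has a replicate check and no test was made. Other genes of the pathway and marker genes of the labelled cell type were not analysed here.

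SP5 is known as a direct target of WNT and β-catenin signalling in vertebrate embryos, and its protein acts back on the transcription of other WNT targets. SP8 is known from mouse embryos for its role in keeping Fgf8 expressed in the limb bud and for its part in patterning the forebrain and the midbrain-hindbrain border. H3K4me3 marks promoters that are active or poised, whereas H3K27me3 is deposited by Polycomb repressive complex 2 at silent developmental genes. Regions that carry both are called bivalent and are common at developmental genes in stem cells and progenitors.

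The RefSeq promoters of both genes on build GRCh38.p14, from 250 bases before the gene's start to 50 after it, are shown because canonical WNT signalling acts through TCF/LEF proteins bound to DNA near its target genes. Capitals mark matches to CTTTGA, the core of the TCF/LEF motif, and to GGGCGG, the GC box bound by Sp factors. Both strands were searched, so a match on the other strand reads TCAAAG or CCGCCC. The SP5 sequence is chr2:170715087-170715386 on the plus strand and the SP8 sequence is chr7:20786837-20787136 on the minus strand, each printed 5′ to 3′ along its gene.
SP5: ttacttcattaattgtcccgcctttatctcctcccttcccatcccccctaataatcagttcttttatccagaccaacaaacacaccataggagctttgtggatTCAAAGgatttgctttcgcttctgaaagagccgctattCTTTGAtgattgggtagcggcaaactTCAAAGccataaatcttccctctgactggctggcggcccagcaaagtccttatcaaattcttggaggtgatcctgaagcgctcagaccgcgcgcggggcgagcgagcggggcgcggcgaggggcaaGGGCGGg
SP8: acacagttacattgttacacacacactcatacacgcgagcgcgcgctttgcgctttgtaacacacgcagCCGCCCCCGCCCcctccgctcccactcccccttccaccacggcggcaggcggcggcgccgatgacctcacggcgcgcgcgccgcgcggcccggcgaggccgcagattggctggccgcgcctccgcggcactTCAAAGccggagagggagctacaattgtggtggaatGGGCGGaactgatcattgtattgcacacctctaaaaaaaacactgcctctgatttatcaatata

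The SP5 promoter held 3 matches to CTTTGA, at bases 104 to 109, 142 to 147 and 168 to 173 of the printed sequence, and the SP8 promoter held 1, at bases 201 to 206. Of the 35116 promoters in the table, 12.9% held at least 1 such match and 35 (0.0997%) held 3 or more. For GGGCGG the order was the other way, with 1 match in SP5 and 3 in SP8, against at least 1 in 45.0% of promoters and at least 3 in 15.8%. The matches of the 2 motifs did not overlap each other. CpG dinucleotides numbered 17 in the SP5 promoter and 33 in the SP8 promoter, beside a median of 14. At least as many were held by 46.0% of promoters for SP5 and 17.2% for SP8. GC content was 52.3% in SP5 and 61.7% in SP8, beside a median of 58.7%. The promoters are on another build than the peaks and were not placed within them, and a match of letters is not a measured binding site. In the same gene table the protein-coding neighbours of SP5 are MYO3B and ERICH2, and the non-coding gene ERICH2-DT overlaps SP5. The nearest long non-coding genes that do not overlap SP5 are LINC01124 below and GAD1-AS1 above. The protein-coding neighbours of SP8 are ABCB5 and SP4, and the nearest long non-coding genes are ITGB8-AS1 below and LINC01162 above.

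At SP5, H3K4me3 was broad and high in Boost-Chir, where no H3K27me3 peak was called, while Low-Chir carried a run of short peaks of both marks. The length under H3K4me3 peaks was 18.1 kb in Boost-Chir and 5.84 kb in Low-Chir, a ratio of 3.10, with 8 peaks in each list. The length under H3K27me3 peaks was 0 kb in Boost-Chir, with 0 peaks, and 9.83 kb in Low-Chir, with 12 peaks. H3K4me3 thus covered 51.8% of the window in Boost-Chir against 16.7% in Low-Chir, and H3K27me3 covered 28.1% of it in Low-Chir alone.

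**Figure D1:**
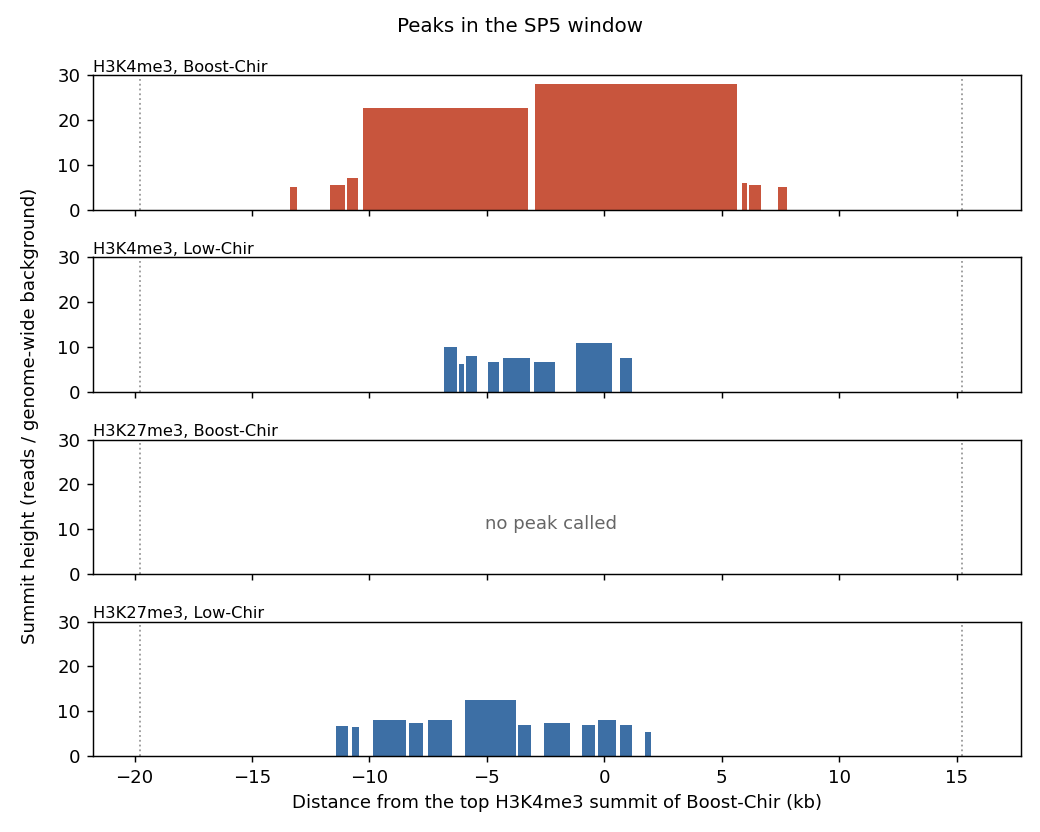
Peaks in the SP5 window for each mark and condition. The horizontal axis is the distance in kb from the top H3K4me3 summit of Boost-Chir, each bar spans a called peak, its height is the number of reads at the peak's summit divided by the library's genome-wide background, and dotted lines are the window's ends. Boost-Chir has 2 broad H3K4me3 peaks at heights of 22.8 and 28.1 and no H3K27me3 peak, and Low-Chir has 8 short H3K4me3 and 12 H3K27me3 peaks.

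Most of the Boost-Chir H3K4me3 lay in 2 broad peaks. One ran from 171564513 to 171571530, over 7.02 kb, with a deposited fold enrichment of 16.3. The other ran from 171571813 to 171580426, over 8.61 kb, with a fold enrichment of 19.4. Only 10 of the 46793 peaks of that list had a higher fold enrichment than the second. The other 6 Boost-Chir peaks were 225 to 639 bp long and reached at most 4.92-fold. In Low-Chir the 8 peaks were 213 to 1561 bp long, at 3.27 to 6.07-fold, and 17024 of the 44022 peaks in the list exceeded the highest of them. Fold enrichment is the authors' value over a local background, and it depends on depth.

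Depth was therefore taken into account through the number of reads at each summit, recovered from the deposited fold enrichment and p-value. The highest SP5 H3K4me3 summit had 75 reads in Boost-Chir (exact Poisson 95% interval 59.0 to 94.0) and 24 reads in Low-Chir (15.4 to 35.7). The genome-wide background was 2.67 reads in Boost-Chir and 2.21 reads in Low-Chir, so the summit stood at 28.1 times the background in Boost-Chir and 10.9 times in Low-Chir. The ratio of these heights was 2.59, with an exact interval of 1.61 to 4.28 that covers counting error only and takes the summit as if it had been a fixed position. The 2 summits, at 171574776 in Boost-Chir and 171574379 in Low-Chir, were 397 bp apart.

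The widening went to both sides. Boost-Chir H3K4me3 began 6.56 kb below the first Low-Chir peak, at 171561391 against 171567946, and ended 6.63 kb above the last, at 171582575 against 171575942. These outer ends were set by short, weak peaks of 2.72-fold and 3.26-fold, with −log10 q of 2.26 and 3.29. The 2 broad peaks alone, from 171564513 to 171580426, also passed the Low-Chir peaks on both sides, but by less. Nearly all of the Low-Chir H3K4me3 was kept, with 5.72 of 5.84 kb (97.9%) also under a Boost-Chir peak. That shared length was 31.5% of the Boost-Chir H3K4me3. A gap between the 2 broad Boost-Chir peaks, 282 bp from 171571531 to 171571812, contained a Low-Chir gap of 158 bp from 171571621 to 171571778. Apart from that gap, Boost-Chir peaks ran without a break from 171564513 to 171580426.

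The H3K27me3 domain of Low-Chir lay off centre relative to the H3K4me3 of the same cells. It ran from 171563332 to 171576757, starting 4.61 kb below the first Low-Chir H3K4me3 peak and ending 0.815 kb above the last. Its highest peak, 171568853 to 171570998, had 39 reads at the summit (exact Poisson 95% interval 27.7 to 53.3), or 12.5 times the background, and a fold enrichment of 6.07. Of the 12 peaks, 9 were in the top 50% of the list by −log10 q, so most were not near the calling threshold. Boost-Chir had no H3K27me3 peak between a point 2448 kb below the window and a point 86.4 kb above it. Low-Chir was similarly empty outside the window, with its nearest H3K27me3 peaks there 2508 kb below and 79.9 kb above. A peak list holds only what passed the caller, so H3K27me3 below the threshold in Boost-Chir cannot be read from it.

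The places that carried H3K27me3 in Low-Chir were nearly all under H3K4me3 in Boost-Chir. Of the 9.83 kb, 9.55 kb (97.1%) lay under Boost-Chir H3K4me3 peaks, and 4.50 kb (45.8%) already lay under H3K4me3 in Low-Chir. Base by base, 4.41 kb had H3K4me3 alone in Boost-Chir where both marks were called in Low-Chir. Another 5.14 kb had H3K4me3 alone in Boost-Chir against H3K27me3 alone in Low-Chir. The new H3K4me3 was not limited to bases under those H3K27me3 peaks. A further 7.27 kb had H3K4me3 in Boost-Chir and neither mark in Low-Chir, some of it in gaps between the H3K27me3 peaks. Peaks of both marks at 1 base do not show that both sat on the same chromosomes, because a culture can hold cells of either state.

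**Figure D2:**
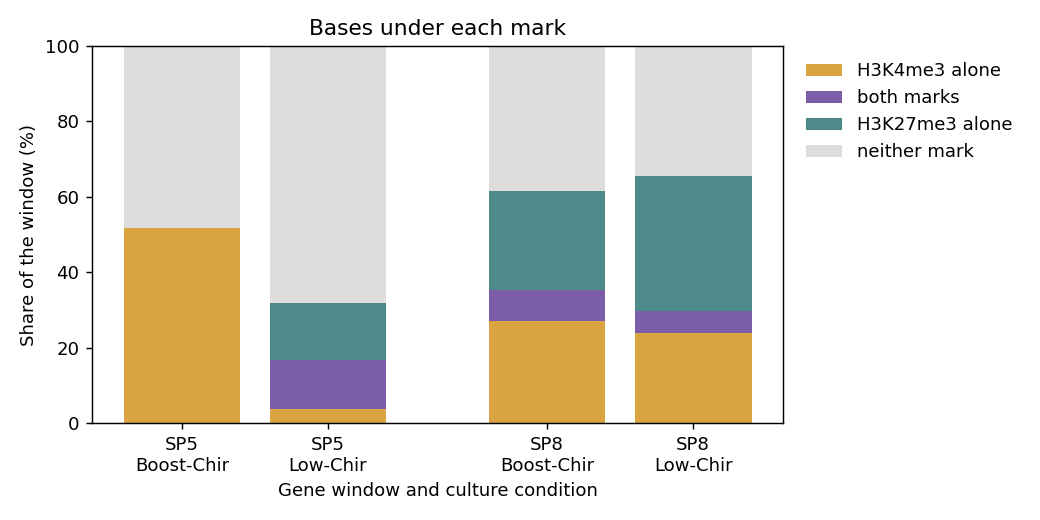
Share of each window, in percent of its bases, under H3K4me3 peaks alone, both marks, H3K27me3 peaks alone or neither, for each gene and condition. At SP5 both marks shared 0% of the window in Boost-Chir and 12.9% in Low-Chir, while at SP8 they shared 8.19% in Boost-Chir and 5.93% in Low-Chir.

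SP8 carried both marks in both conditions, and neither changed by more than the limits used here. H3K4me3 covered 9.51 kb in Boost-Chir, under 8 peaks, and 8.02 kb in Low-Chir, under 7 peaks. H3K27me3 covered 9.34 kb in Boost-Chir, under 10 peaks, and 11.3 kb in Low-Chir, under 9 peaks. The differences, Boost-Chir minus Low-Chir, were 1.49 kb for H3K4me3 and -1.91 kb for H3K27me3. Their size depended on the peaks used: with peaks within 3 kb joined they were 8 bp and -285 bp. With the same number of peaks from both lists the H3K4me3 difference was 631 bp, and with the top 50% of each list the H3K27me3 difference was -765 bp.

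**Figure D3:**
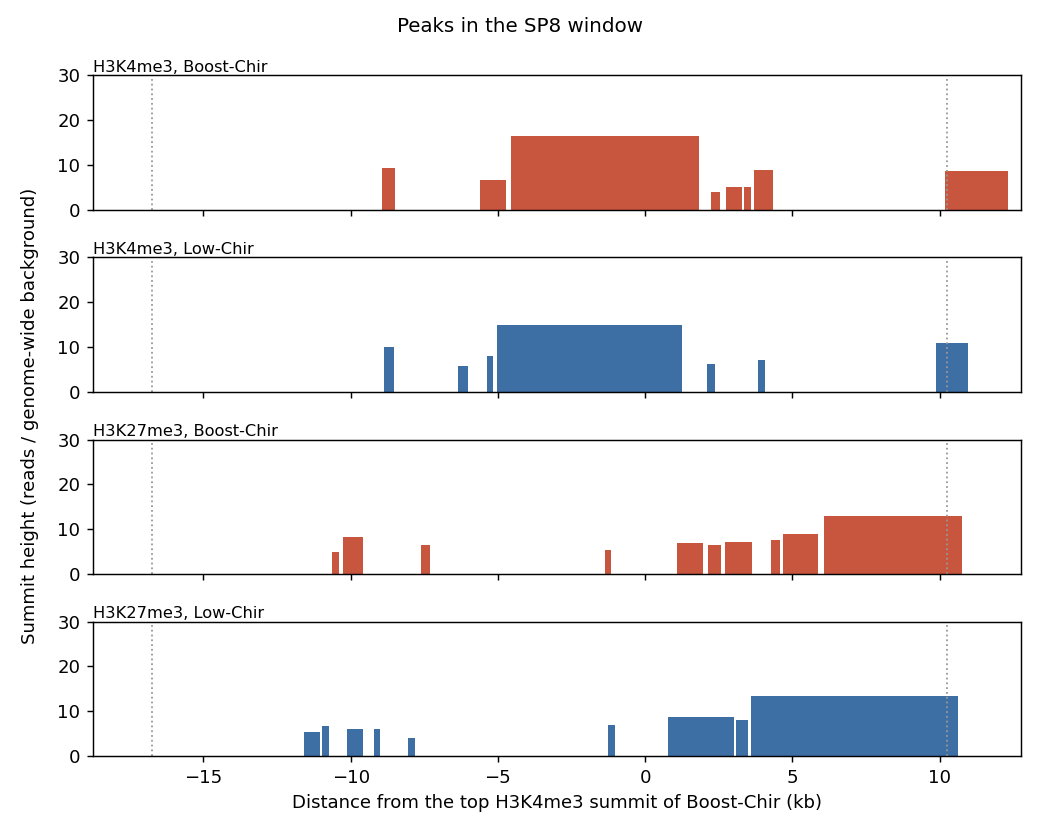
Peaks in the SP8 window for each mark and condition, with the distance in kb from the top H3K4me3 summit of Boost-Chir on the horizontal axis. Each bar spans a called peak, its height is the number of reads at its summit over the library's genome-wide background, and dotted lines are the window's ends. In both conditions the longest H3K4me3 peak, 16.5 high in Boost-Chir and 14.9 high in Low-Chir, lies beside an H3K27me3 run on its right. That run reaches the end of the window, and shorter H3K4me3 peaks lie over parts of it, also at the window's upper end.

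The main H3K4me3 peak of SP8 kept its place and length. It ran from 20822203 to 20828583 (6.38 kb) in Boost-Chir and from 20821730 to 20828022 (6.29 kb) in Low-Chir. The summits, at 20826752 in Boost-Chir and 20826742 in Low-Chir, were 10 bp apart. Reads at the summit numbered 44 in Boost-Chir (exact Poisson 95% interval 32.0 to 59.1) and 33 in Low-Chir (22.7 to 46.3). Per unit of background the heights were 16.5 in Boost-Chir and 14.9 in Low-Chir, a ratio of 1.10 with an exact interval of 0.687 to 1.79, so a difference was not detectable at this depth. The deposited fold enrichments were 12.3 in Boost-Chir and 9.35 in Low-Chir. A short peak on the lower side, at 20817827 to 20818262 (7.08-fold) in Boost-Chir and 20817877 to 20818216 (6.89-fold) in Low-Chir, was also in both lists.

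H3K27me3 at SP8 lay to the side of the main H3K4me3 peak. Above its upper end lay 7.12 kb of H3K27me3 in Boost-Chir (76.2% of that in the window) and 8.81 kb in Low-Chir (78.3%). Within the main H3K4me3 peak, H3K27me3 covered 0.979 kb in Boost-Chir and 0.735 kb in Low-Chir. The longest H3K27me3 peak was 4.67 kb in Boost-Chir, from 20832838 to 20837511, and 7.04 kb in Low-Chir, from 20830345 to 20837384. In both conditions it overlapped an H3K4me3 peak that crossed the window's upper end. That H3K4me3 peak ran from 20836923 to 20839060 (6.53-fold) in Boost-Chir and from 20836638 to 20837714 (7.28-fold) in Low-Chir. The highest H3K27me3 summit had 39 reads in Boost-Chir, or 12.9 times the background, and 42 reads in Low-Chir, or 13.4 times, a ratio of 0.956 with an exact interval of 0.602 to 1.51. By deposited fold enrichment the order was the other way, with 9.31 in Boost-Chir and 8.51 in Low-Chir. The 2 summits stood 4883 bp apart, at 20836730 in Boost-Chir and 20831847 in Low-Chir, within the same run of H3K27me3.

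Most of the length under peaks at SP8 was shared between conditions for both marks. Of the Boost-Chir H3K4me3, 75.2% lay under H3K4me3 of Low-Chir, and 89.2% of the Low-Chir H3K4me3 lay under that of Boost-Chir. For H3K27me3 these shares were 89.3% of Boost-Chir and 74.2% of Low-Chir. The share kept over all peaks of the lists was not computed, here or for SP5. Bases under both marks made up 2210 bp in Boost-Chir and 1600 bp in Low-Chir, of which 0.534 kb were the same. A length of 1.40 kb had both marks in Boost-Chir against H3K27me3 alone in Low-Chir. The window's upper end cut through peaks of both marks in both conditions. With 10 kb added on each side, H3K4me3 measured 11.6 kb in Boost-Chir and 9.73 kb in Low-Chir, and H3K27me3 measured 11.1 kb in Boost-Chir and 12.6 kb in Low-Chir.

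**Figure D4:**
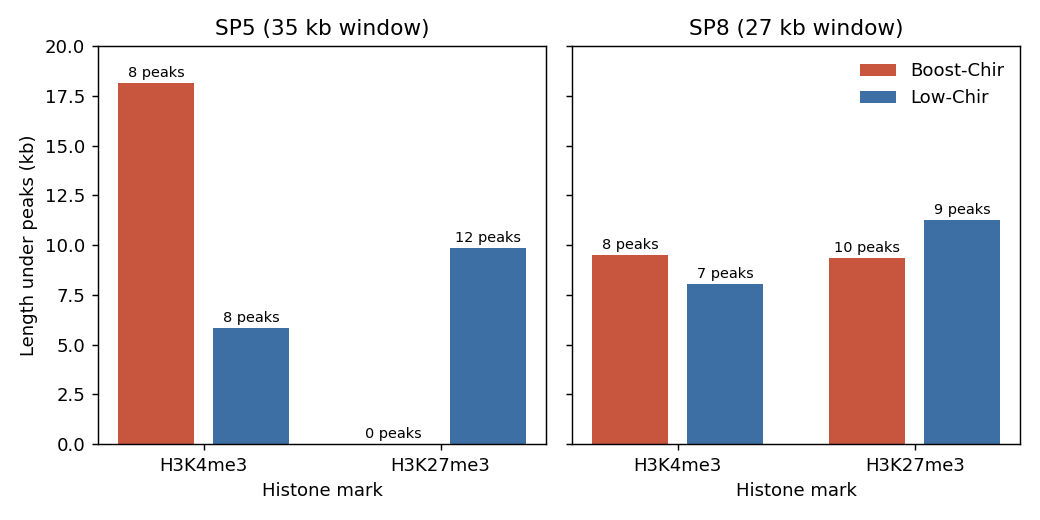
Length in kb under peaks of each mark in the SP5 and SP8 windows, Boost-Chir beside Low-Chir, 1 library per bar, with the number of peaks above each bar. At SP5 H3K4me3 measures 18.1 kb in Boost-Chir and 5.84 kb in Low-Chir, and H3K27me3 0 kb in Boost-Chir and 9.83 kb in Low-Chir. At SP8 the bars of the 2 conditions are of like length, with H3K4me3 at 9.51 kb in Boost-Chir and 8.02 kb in Low-Chir.

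The changes were set against those of all tiles as long as each window, since H3K4me3 was broader over the genome as a whole in Boost-Chir. H3K4me3 covered 49.7 Mb in Boost-Chir and 38.5 Mb in Low-Chir, and H3K27me3 covered 18.8 Mb in Boost-Chir and 20.9 Mb in Low-Chir. The recovered background, taken as depth, was 1.21 times as high in Boost-Chir as in Low-Chir for H3K4me3 and 0.971 times for H3K27me3, and the part of depth in the differences was not tested. A window was called when its covered length changed by at least 2 kb for H3K4me3 or 5 kb for H3K27me3. The SP5 window passed both limits and the SP8 window neither.

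For H3K4me3, 1374 of 15529 tiles of 35 kb (8.85%) had a gain of at least 2 kb in Boost-Chir, with a median change of 559 bp over the tiles outside SP5. The SP5 change of 12.3 kb was equalled or exceeded by 3 of those tiles. For H3K27me3, 110 of 7102 tiles (1.55%) had a loss of at least 5 kb in Boost-Chir. The counts of 1374 and 110 are over all tiles, those that overlap the SP5 window included. The SP5 loss of 9.83 kb was equalled or exceeded by 23 of the tiles outside it. Tiles cut through domains, so changes were also taken over whole loci, made by joining peaks of both conditions within 3 kb. Among 16580 H3K4me3 loci, 3 others gained as much as SP5, and among 7868 H3K27me3 loci, 28 others lost as much.

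In height, the top H3K4me3 peak was at least 2-fold higher in Boost-Chir in 53 of the 13552 tiles with a peak in both lists (0.391%) and at least 2-fold lower in 92 (0.679%), and the median ratio was 1.08. The SP5 ratio of 2.59 was equalled or exceeded in 25 of the 13552 tiles, among which the tile that holds the SP5 summits may itself be counted. At SP8 the ratio of 1.10 was close to the median of 1.07 over 14245 tiles of 27 kb, of which 73 (0.512%) were at least 2-fold higher and 117 (0.821%) at least 2-fold lower. The SP8 H3K27me3 ratio of 0.956 stood beside a median of 0.931.

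In length, 1215 of 16685 tiles of 27 kb (7.28%) gained at least 2 kb of H3K4me3 in Boost-Chir, and 99 of 7673 (1.29%) lost at least 5 kb of H3K27me3. The SP8 change of 1.49 kb in H3K4me3 was equalled or exceeded in 14.9% of the tiles outside it. Its change of -1.91 kb in H3K27me3 was matched or surpassed downward in 7.12%. The SP8 ratio of H3K4me3 lengths, 1.19, was below that over the whole genome, 1.29.

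Both marks were found in 4709 tiles of 35 kb, each mark in at least 1 condition. Of these, 34 (0.722%) gained at least 2 kb of H3K4me3 and lost at least 5 kb of H3K27me3 in Boost-Chir, as the SP5 window did, and 4 showed the reverse. Tiles that overlap the SP5 window may be among the 34. No tile (0 of 4709) gained past both limits in both marks or lost past both. In 2 tiles both changes were at least as great as at SP5.

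**Figure D5:**
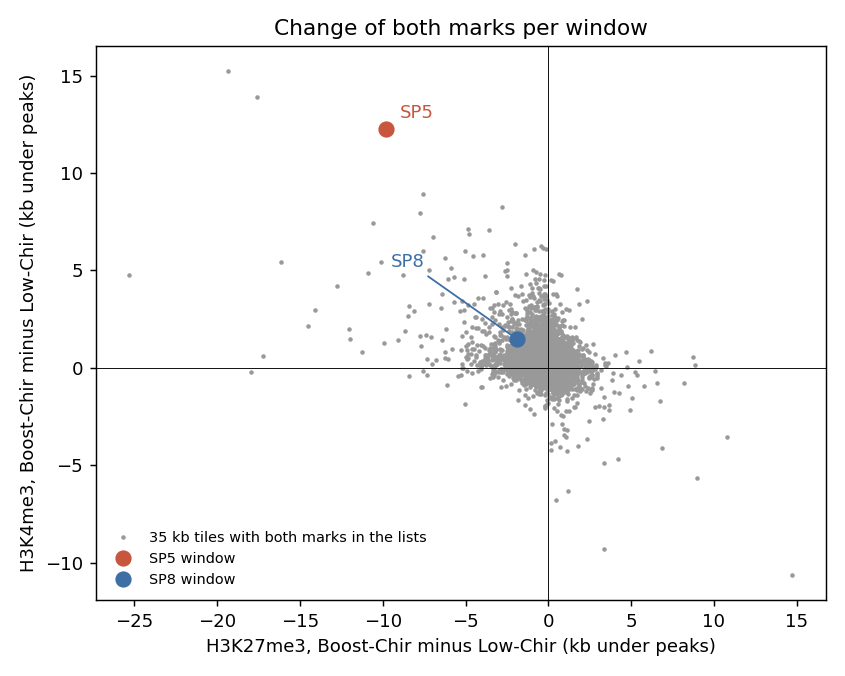
Change in the length under peaks, Boost-Chir minus Low-Chir in kb, for H3K27me3 (horizontal) and H3K4me3 (vertical). Grey points are the 4709 tiles of 35 kb that held both marks in the lists, and coloured points are the SP5 window of 35 kb and the SP8 window of 27 kb. SP5 lies at -9.83 and 12.3 kb, far from the dense centre, and SP8 at -1.91 and 1.49 kb, at its edge.

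The tiles whose 4 covered lengths were nearest to each gene's were ranked by Euclidean distance on the scale of log2(kb + 1), over 17920 tiles, and are given by position only. Nearest to SP5 was chromosome 2 at 119560001 to 119595000 (distance 0.746), with 12.8 kb of H3K4me3 in Boost-Chir and 3.92 kb in Low-Chir, and H3K27me3 of 0 kb in Boost-Chir and 7.60 kb in Low-Chir. The second was chromosome 12 at 130620001 to 130655000 (0.842), with 10.6 kb of H3K4me3 in Boost-Chir and 5.77 kb in Low-Chir, and H3K27me3 of 0.323 kb in Boost-Chir and 11.2 kb in Low-Chir. The third, chromosome 2 at 121485001 to 121520000, was farther, at 1.31. The 27 kb SP8 window was set against the same 35 kb tiles, so the lengths matched come from windows of unequal size. Its first 3 tiles stood at distances of 0.368 to 0.434, led by chromosome 8 at 145670001 to 145705000. That tile had 9.97 kb of H3K4me3 in Boost-Chir and 8.15 kb in Low-Chir, and H3K27me3 of 7.08 kb in Boost-Chir and 10.6 kb in Low-Chir.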

How the data were processed

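Chromatin from 6 libraries, an H3K4me3, an H3K27me3 and an input sample per condition, was sequenced, and the 4 antibody libraries were analysed here through 1 peak list each. The submitters' processing notes name the tools cutadapt 1.6, BWA 0.7.12 and Picard and the genome build hg19. The program that called the peaks is not given in the sources used here. Peak names in the deposited lists show that each library was called against the input of the same condition. The authors deposited for every peak a fold enrichment (a ratio), p and q as −log10 values (−log10 p-value and −log10 q-value), and a score, left unused because it is 10 times −log10 q without its decimals.

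Covered length is the number of bases of a window under peaks. Reads at a summit were solved from fold and p, with fold taken as (reads + 1) / (background + 1) and p as the upper tail of a Poisson distribution. The deposited −log10 p was returned within 0.001 for 100% of peaks, and the code was tested on simulated data. The lowest background of a list, in reads, served as its depth. Poisson and binomial intervals are exact, at 95%, and cover counting error only. Python 3.11.15, numpy 2.4.6, scipy 1.17.1 and matplotlib 3.10.9 were used. Positions are counted from 1. The windows, limits and lists were chosen with earlier results of these data known. The genes named are the 2 members and their neighbours in the RefSeq table, which follows GRCh38.p14, so no other gene was placed on the peaks. With 1 library per group, no p-value was computed. Alternatives changed the peaks kept, the window and the joining of peaks.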

Additional observations from a re-analysis of the deposited data

How the results depend on the processing

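No paired analysis was possible because there is a single library of each mark per condition, and none could be left out. At SP5 the H3K4me3 gain stayed between 11994 and 13188 bp and the H3K27me3 loss between 8.76 and 13.4 kb under the 6 alternatives for peaks, window and joining, of which the summit of at least 5 times the background was chosen after seeing the data. The SP5 height ratio was 3.19 by deposited fold enrichment. No height ratio exists for H3K27me3 at SP5, where Boost-Chir had no peak. At SP8 the H3K4me3 difference of 1490 bp became 631 bp with the same number of peaks from both lists and 8 bp with peaks within 3 kb joined. The H3K27me3 difference of -1913 bp became -765 bp with the top 50% of each list, -765 bp with a −log10 q of at least 5, and -285 bp with joining. The SP8 H3K27me3 height ratio of 0.956 was 1.09 by deposited fold, on the other side of 1. The share of tiles past the length limit in either direction, 9.22% for H3K4me3 and 1.99% for H3K27me3, was 7.65% and 1.66% with tiles as long as the SP8 window, and 7.53% and 1.53% over joined loci. Tiles with more H3K4me3 and less H3K27me3 past the limits numbered 34, against 30 with tiles as long as the SP8 window and 31 with the top 50% of each list, both chosen after seeing the data.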
